A study of Mus musculus with 35 samples.

Results

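The immunoglobulin probe sets of the array were described across all groups of a study of mouse fat. A probe set is a group of short DNA probes on the array that together measure 1 transcript or a family of transcripts. Members were all probe sets whose annotated gene symbols begin with Igh (heavy chain), Igk (kappa light chain) or Igl (lambda light chain, or the surrogate light chain gene Igll1). Of 12422 probe sets that are not controls 78 were members, and 1 probe set annotated to Igk together with a gene that is not an immunoglobulin was left out. They comprised 39 heavy chain, 35 kappa and 2 lambda probe sets and 2 for Igll1, with 37 distinct symbols.

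The study measured perigonadal fat, the visceral depot around the gonads, on 35 Affymetrix MG-U74Av2 arrays, 1 per sample, from C57BL/6J mice aged 22 weeks. Untreated females were lean wild type (4 arrays), Ay/+ (4 arrays; agouti mutants that become obese) or ob/ob (4 arrays; obese mice without functional leptin). Pioglitazone, an agonist of the nuclear receptor PPARγ that sensitises to insulin, was dosed at 10 mg/kg/day over 2 weeks in 3 Ay/+ and 3 ob/ob females, although the label of 1 Ay/+ animal names no dose. The β3 adrenergic agonist CL316243 was dosed in 2 ob/ob females, at 3 mg/kg/day over the same time. Males were lean wild type (4 arrays), ob/ob (4 arrays), wild type with diet-induced obesity (3 arrays) or the same diet with pioglitazone at 10 mg/kg/day for 2 weeks (4 arrays). Lean groups and diet groups were both wild type, so diet and mutation were never combined. The labels do not say whether a sample is 1 animal or a pool, so the p-values below measure the spread between these samples.

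Antibodies are made of paired heavy and light chains, and both are assembled in B cells by joining variable segments to a constant region. Resting B cells carry IgM and IgD on their surface, whereas plasma cells secrete large amounts of antibody and, for IgM and IgA, join the units with the J chain encoded by Jchain. Visceral fat of mice holds B cells and plasma cells, in the stroma and in lymphoid clusters, and these cells increase in number in obesity.

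The annotation limits what a member can tell. A symbol here names the sequence from which the probes were designed, and 33 of the 78 members carry the suffix by which the manufacturer marks probes shared by several genes of a family. Of the members, 12 have more than 1 symbol, all of them immunoglobulin, and 16 are annotated Ighm, and which part of an antibody transcript each of these targets was not checked here. Probe sets of 1 family can hybridise to each other's transcripts, and members are not independent measurements. By RefSeq (GRCm38.p6) the heavy chain genes lie on chromosome 12, the kappa genes on chromosome 6, and Iglc1 and Igll1 on chromosome 16. A mean scaled signal of at least 46 over all 35 arrays, which is 2 times the pseudocount of 23, was reached by 43 members: 16 heavy chain, 24 kappa, 1 lambda and both Igll1 probe sets. They are called the brighter members below. The other 35 had means from 5.80 to 43.24 and are treated only as counts unless a comparison called them. Exceptions are 93638_s_at, 161486_f_at and 97009_f_at, which share a symbol with a named member.

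RefSeq promoter windows (250 bases before to 50 after the start) were at hand for Igll1 but for no other member, and that of Jchain is shown beside it because Jchain serves as the reference for plasma cells below. Igll1 (GRCm38.p6, chr16:16863936-16864235, minus strand) holds 1 match of CCCNNGGG, a pattern like the binding motif of the B cell factor EBF1, starting 231 bases before the start and set in capitals. Neither window holds the octamer ATGCAAAT, the motif known from promoters of immunoglobulin variable genes. Both strands were searched and CCCNNGGG reads the same on either strand. The octamer occurs in 1.74% and CCCNNGGG in 13.7% of 32851 promoter windows of the same length, so these matches are a description only. Jchain lies at chr5:88527848-88528147, minus strand.
Igll1: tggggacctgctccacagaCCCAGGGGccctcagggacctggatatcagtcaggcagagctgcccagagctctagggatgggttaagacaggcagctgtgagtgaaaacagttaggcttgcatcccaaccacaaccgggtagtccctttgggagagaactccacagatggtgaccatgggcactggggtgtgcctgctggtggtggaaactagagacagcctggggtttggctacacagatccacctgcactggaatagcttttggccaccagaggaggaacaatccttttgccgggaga
Jchain: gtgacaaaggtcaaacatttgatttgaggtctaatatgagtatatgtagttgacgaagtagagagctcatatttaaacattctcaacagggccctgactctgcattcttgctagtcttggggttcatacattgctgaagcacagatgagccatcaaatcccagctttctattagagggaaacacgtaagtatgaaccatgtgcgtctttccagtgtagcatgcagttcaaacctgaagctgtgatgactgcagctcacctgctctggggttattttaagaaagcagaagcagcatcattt

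Among the members, 2 Ighm probe sets, 93583_s_at and 93584_at, had the lowest adjusted p in the comparisons of lean females with obese females and with lean males. Ighm encodes the constant region of the IgM heavy chain. Their signal was low in the fat of lean females and higher in every other group.

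For 93583_s_at the scaled signal in the 4 lean females was 1489, 1838, 1135 and 1059. It was 6701, 8146, 10210 and 10680 in Ay/+ females and 4934, 3921, 3263 and 5380 in ob/ob females. In lean males it was 5218, 4132, 6111 and 4165. Every lean female lay below every other array of the study, of which the lowest was an ob/ob female on pioglitazone at 2914. In ob/ob males it was 4850, 4213, 3575 and 3723, and in diet-induced obese males 4798, 4938 and 5375. These male groups overlapped with lean males in part.

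For 93584_at the lean females gave 138, 239.5, 135 and 107.4. Ay/+ females gave 1173, 1827, 2048 and 1824, and ob/ob females 988, 684, 1128 and 660.8. Lean males gave 1188, 1672, 1658 and 1231. Again all lean females lay below all other arrays. The 4 ob/ob males, at 786, 710, 782 and 674, lay below all lean males, and diet-induced obese males, at 1415, 1457 and 1112, did not.

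**Figure D1:**
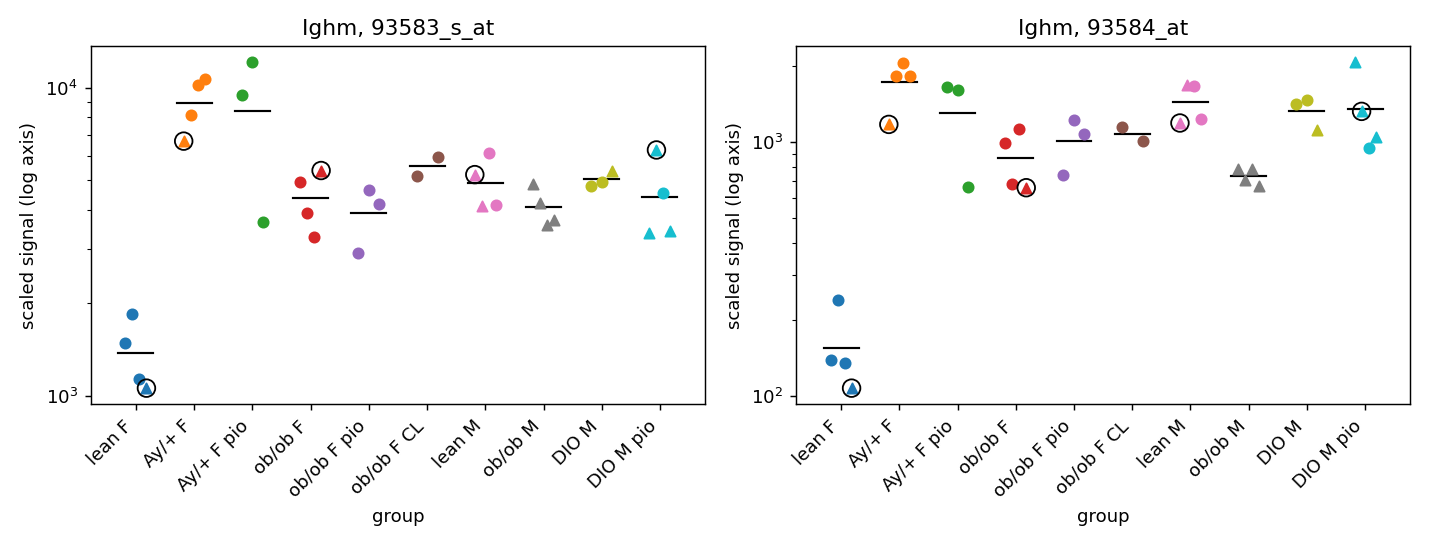
Scaled signal (log axis) of Ighm probe sets 93583_s_at (left) and 93584_at (right) by group, 1 point per array with the group mean as a line; circles are earlier arrays, triangles later arrays, and black rings the 5 arrays scanned on 1 shared day. The 4 lean females lie at 1059 to 1838 on the left and at 107.4 to 239.5 on the right, below all other arrays.

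Against lean females, 93583_s_at was 3.15-fold higher in ob/ob females (log2 1.66 ± 0.27, SE, n = 4 and 4; limma, adjusted p = 3.5e-05) and 6.43-fold higher in Ay/+ females (2.68 ± 0.27, adjusted p = 2.02e-08). For 93584_at the same comparisons gave 5.04-fold (2.33 ± 0.26, adjusted p = 5.37e-08) and 9.92-fold (3.31 ± 0.26, adjusted p = 1.37e-10). Folds are on the scale of signal plus 23. Ay/+ females also exceeded ob/ob females in both probe sets, by log2 1.03 and 0.98 (written as ob/ob minus Ay/+: -1.03, adjusted p = 0.00737, and -0.98, adjusted p = 0.0079), with no overlap of the groups. These 2 calls ended with the compared groups only (adjusted p = 0.0834 and 0.0787) and on the later arrays (log2 -0.32 and -0.81), and that of 93583_s_at also with quantile normalization (-0.34, adjusted p = 0.225). In these females, members were called in 10 of 78 for ob/ob against lean, beside 24.4% of all probe sets called, in 14 for Ay/+ against lean, beside 17.8%, and in 9 for ob/ob against Ay/+, beside 21.6%. The shares of members, 12.8%, 17.9% and 11.5%, were at or below those backgrounds.

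Lean males exceeded lean females in both probe sets, by log2 1.83 ± 0.27 for 93583_s_at (adjusted p = 2.88e-05) and by 3.07 ± 0.26 for 93584_at (adjusted p = 7.43e-10). The difference of the ob/ob effect between the sexes was itself called: males minus females it was -1.91 ± 0.38 for 93583_s_at (adjusted p = 0.00249) and -3.26 ± 0.37 for 93584_at (adjusted p = 6.82e-07), while 5.68% of all probe sets were called in that test. In males alone 93584_at fell by 0.92 in ob/ob against lean (adjusted p = 0.0152), while 93583_s_at gave -0.25 ± 0.27 (adjusted p = 0.734). In lean males against lean females, where 15.7% of all probe sets were called, none of 18 B cell markers was higher and 1 was lower. Of 12 plasma cell genes none was higher and 2 were lower. Among other lists 5 of 10 macrophage markers and 4 of 10 MHC class II genes were higher, and 4 of 18 T and NK cell markers and 2 of 9 female tract genes lower. Their summed signals were 4764 to 6621 in lean males and 2451 to 4447 in lean females for macrophage markers, 627.1 to 903.1 and 978 to 1460 for T and NK cell markers, and 213.4 to 318.7 and 340.3 to 1759 for female tract genes; their part in the sex difference was not tested. The male call of 93584_at was lost when lean male replicate 2 (-0.85, adjusted p = 0.0586) or 3 (-0.85, adjusted p = 0.0544) was left out.

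These differences between females were present within each batch of arrays. On the earlier arrays alone, ob/ob against lean gave log2 1.43 for 93583_s_at and 2.31 for 93584_at, and on the later arrays, with 1 array in each female group and the spread taken from all groups, 2.32 and 2.39. One scan day held 5 groups. On it 93584_at was 107.4 in the lean female, 1173 in the Ay/+ female, 660.8 in the ob/ob female, 1188 in the lean male and 1320 in a diet-induced obese male on pioglitazone.

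The 3' to 5' signal ratio of Gapdh, a measure of RNA integrity, was 1.31 to 2.51 in lean females, 0.741 to 1.02 in Ay/+ females, 0.708 to 1.85 in ob/ob females and 1.01 to 1.79 in lean males. Its part in the result was not tested. In bulk tissue, fewer cells of a type and less RNA per cell cannot be told apart.

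Among all probe sets outside the members, the profile of 93584_at over the 35 arrays was most like that of Sncg 104280_at (γ-synuclein, a gene expressed in adipocytes and neurons; r = 0.898) and of Lep 98444_g_at, the adipocyte hormone leptin (r = 0.84). For 93583_s_at the leading probe sets were Tuba1a 100343_f_at (r = 0.817) and Sncg (r = 0.793). The other Sncg probe set, 161859_f_at, had r of 0.757 with 93584_at and 0.706 with 93583_s_at, and the other Lep probe set, 98443_at, 0.69 and 0.701. This search on single members was added after their values had been seen. The arrays share groups: after removal of the group means the r with Sncg was 0.382 for 93584_at and 0.124 for 93583_s_at. Without the 2 arrays farthest from the median of Sncg, both lean females, r over the remaining arrays was 0.84 and 0.697.

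Levels of Sncg 104280_at show the same low group: 323.3 to 800 in lean females, 3915 to 5394 in Ay/+ females, 1154 to 3555 in ob/ob females and 3002 to 4076 in lean males. As Sncg was picked by its likeness to 93584_at, this is a description only. Lep 98444_g_at, found by the same search, was 186.3 to 432.9 in lean females and at least 559.9 on every other array. The other Lep probe set, 98443_at, was 835.9 to 1342 in lean females. It overlapped with Ay/+ females on pioglitazone, of which the lowest was 1201. For B cell markers and 93584_at, r over the arrays was -0.034 with Cd79a and -0.223 with Cd79b (the signalling chains of the B cell receptor), 0.112 with Ms4a1 (CD20) and -0.094 with Jchain. After removal of the group means these r were 0.259, 0.083, 0.483 and 0.243 in the same order, beside 0.382 with Sncg. For 93583_s_at they were 0.254, -0.194, 0.286 and 0.293, beside 0.124 with Sncg.

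The remaining constant region members did not follow that pattern in full, and some annotated Ighm that rose in obese females are given below. Igha encodes the constant region of IgA. Its brighter probe set 100583_at was highest in Ay/+ females, at 412.4, 226.9, 248.5 and 726. It was 114.3, 114, 125.9 and 154.8 in lean females, and 104.7, 77.05, 176 and 66.59 in ob/ob females. The Ay/+ group overlapped with neither. It rose by log2 1.37 ± 0.36 against lean females (adjusted p = 0.00781) and fell by 1.65 ± 0.36 in ob/ob against Ay/+ females (adjusted p = 0.00182). The first call rests on Ay/+ replicate 4, without which log2 was 1.05 (adjusted p = 0.0578). The dim Igha probe sets overlapped between these groups. In Ay/+ and lean females 161486_f_at was 10.9 to 55.03 and 19.2 to 40.82, and 97009_f_at was 5.298 to 15.27 and 5.405 to 33.84.

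The signal of Igha 100583_at was 268.3, 302.8 and 313.2 in Ay/+ females on pioglitazone. In ob/ob males it was 598.2 in replicate 1 and 120.3 to 165.2 in the other 3. Ob/ob male replicate 1 also stood apart in the male tract genes, whose summed signal over 8 genes was 16790 on its array, beside a group median of 359.2, and the part of this in the Igha value was not tested.

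Ighd encodes the IgD heavy chain, which mature naive B cells carry together with IgM. Its probe set 101157_at was 323.3, 176.8, 243.6 and 163.3 in lean females, 160.8, 258.6, 227.8 and 174 in Ay/+ females, and 128.3, 109.4, 122.4 and 102.5 in ob/ob females. In lean males it was 43.89, 100.2, 140.4 and 139.2. Lean females lay above ob/ob females and lean males without overlap, and mingled with Ay/+ females. It fell by 0.81 ± 0.25 in ob/ob against lean females (adjusted p = 0.0197), and lean males were 0.99 ± 0.25 below lean females (log2 -0.99, adjusted p = 0.00934). The ob/ob call was lost without lean female replicate 1 (-0.64, adjusted p = 0.101), lean female replicate 3 or ob/ob replicate 2, and the sex call without lean female replicate 1 or lean male replicate 1. Ighd was also lower in ob/ob than in Ay/+ females (-0.70 ± 0.25, adjusted p = 0.0454), a call that held on leaving out 1 of 8 arrays. Ighd differed in the direction opposite to the Ighm pair in the comparisons of lean females with ob/ob females and of lean females with lean males.

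Ighg3 is the constant region of IgG3, and 4 of the 7 probe sets annotated to it alone were brighter members. In lean females 102721_at was 685.3, 116.8, 304.1 and 107, and in lean males 34.94, 82.73, 62.41 and 71.52. Lean males lay below all lean females, by log2 -1.60 ± 0.47 (adjusted p = 0.0209), but the value was -1.11 (adjusted p = 0.137) without lean female replicate 1. That animal was also high on 102722_g_at, at 314.2 against 15.51, 137.3 and 40.11 in the others of its group. Of the 4, only 102721_at was called in a comparison; 102722_g_at, 97574_f_at and 93927_f_at were not. The dim 102723_at was lower in lean males than in lean females (log2 -0.98 ± 0.35, adjusted p = 0.0494), and so was the dim 97575_f_at, annotated Ighg3, Igha and Ighm (-1.13 ± 0.35, adjusted p = 0.0257). The brighter 99421_at, annotated Ighv14-2, Ighg3, Igha and Ighm, was 386.5 to 606.6 in lean females and 183.5 to 435.8 in lean males (-0.84 ± 0.25, adjusted p = 0.0247). On leaving out each of 8 arrays in turn, these 3 calls held for 2, 3 and 3 arrays.

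Of the other members annotated Ighm, 100362_f_at rose in both obese female groups. It was 71.85, 12.89, 29.6 and 73.77 in lean females, 91.84, 298.6, 258.4 and 687.2 in Ay/+ females, and 313.5, 339.8, 457.4 and 69.38 in ob/ob females. Lean and ob/ob females overlapped through ob/ob replicate 4, and lean and Ay/+ females did not. The rise was log2 2.07 ± 0.57 in ob/ob females (adjusted p = 0.0078) and 2.18 ± 0.57 in Ay/+ females (adjusted p = 0.00675), but on the later arrays alone the values were -0.067 and 0.247. The remaining brighter probe set with only this symbol, 99420_at, was not called in any comparison. The probe set 92470_f_at, annotated Ighv1-53, Ighv1-72 and Ighm, rose in ob/ob against lean females by 1.67 ± 0.44 (adjusted p = 0.00642) and the dim 101745_f_at, annotated Ighm, by 1.34 ± 0.33 (adjusted p = 0.00382), each without overlap. The latter also rose in Ay/+ females, by 1.07 ± 0.33 (adjusted p = 0.024), a call that ended without lean female replicate 1, Ay/+ replicate 3 or Ay/+ replicate 4, where the value was 0.71 (adjusted p = 0.156), and on the later arrays alone (0.032).

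The dim probe set 101870_at shows what 1 array can do. It was 603.3 in diet-induced obese male replicate 3 and at most 58.61 on every other array. It was called higher in diet-induced obese than in lean males, by log2 1.93 ± 0.51 (adjusted p = 0.0351), where 1 of 78 members was called beside 1.85% of all probe sets. Without that array the value was 0.63 (adjusted p = 0.443).

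The 14 brighter heavy chain members other than the Ighm pair include both constant region and variable segment probe sets. Of these, 2 rose and 1 fell in ob/ob against lean females, where 24.4% of all probe sets were called, with a median log2 difference of 0.46 beside -0.18 over all 12422 probe sets. In Ay/+ against lean females 3 rose and none fell, where 17.8% of all were called, with a median of 0.84 beside -0.06 over all probe sets. In lean males against lean females none rose and 4 fell (Ighd, Ighg3 102721_at, 99421_at and 102152_f_at), with a median of -0.62 beside -0.20. The members called there made up 14.1% of 78, and 15.7% of all probe sets were called.

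Among variable segments, Igh-VS107 102152_f_at was 139.7, 159.2, 152.7 and 144.6 in lean males, below the lean females at 359.5, 203.9, 284.5 and 268.7 and below the ob/ob males at 209.4, 261.7, 254.4 and 338.7. Lean males did not overlap with either group. In ob/ob against lean males it rose by 0.73 ± 0.23 (adjusted p = 0.0373), a call that held on leaving out 1 of the 8 arrays and ended on the others. Ighv1-54 97563_f_at rose by 1.90 ± 0.58 in Ay/+ against lean females (adjusted p = 0.0206). The dim Igh-VS107 97720_at was higher in ob/ob than in lean females (1.53 ± 0.39, adjusted p = 0.00453) and than in Ay/+ females (1.36 ± 0.39, adjusted p = 0.0132), but the values were -0.395 and 0.255 on the later arrays alone, while the dim 98776_at of the same symbol was lower in ob/ob than in Ay/+ females (-0.78 ± 0.26, adjusted p = 0.0278). Ighv5-12 98765_f_at, at 149 to 279.9 in lean, 180.3 to 624.7 in Ay/+ and 231.5 to 566 in ob/ob females, was not called. On leaving out each of 8 arrays, the Ighv1-54 call held for 5, the 97720_at calls for 8 and 7 and the 98776_at call for 4.

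The kappa light chain is the main light chain of mouse antibodies. Of its 24 brighter probe sets, 93086_at, annotated to the constant gene Igkc with 4 other symbols, had a negative r with Jchain and the other 23 a positive one. Between pairs of the 23, r over the arrays ran from 0.067 to 0.942 with a median of 0.579. Over the 35 arrays the mean log2 signal of the 23 correlated with Jchain 102372_at (r = 0.805; 0.83 after removal of the group means; 0.743 without the 2 arrays farthest from the median of Jchain). The single probe sets had r from 0.357 to 0.753 with Jchain, lowest for 100683_r_at and 97570_at (0.379), for which r was 0.109 and 0.054 after removal of the group means; 97570_at had r of 0.522 with 93086_at. Members of 1 family share target sequence, and all points share the arrays and their scaling. Setting 93086_at apart leaves only probe sets with a positive r, so the r of their mean is a description only. The median r with Jchain was 0.652 over all 24 probe sets and 0.657 over the 23.

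**Figure D2:**
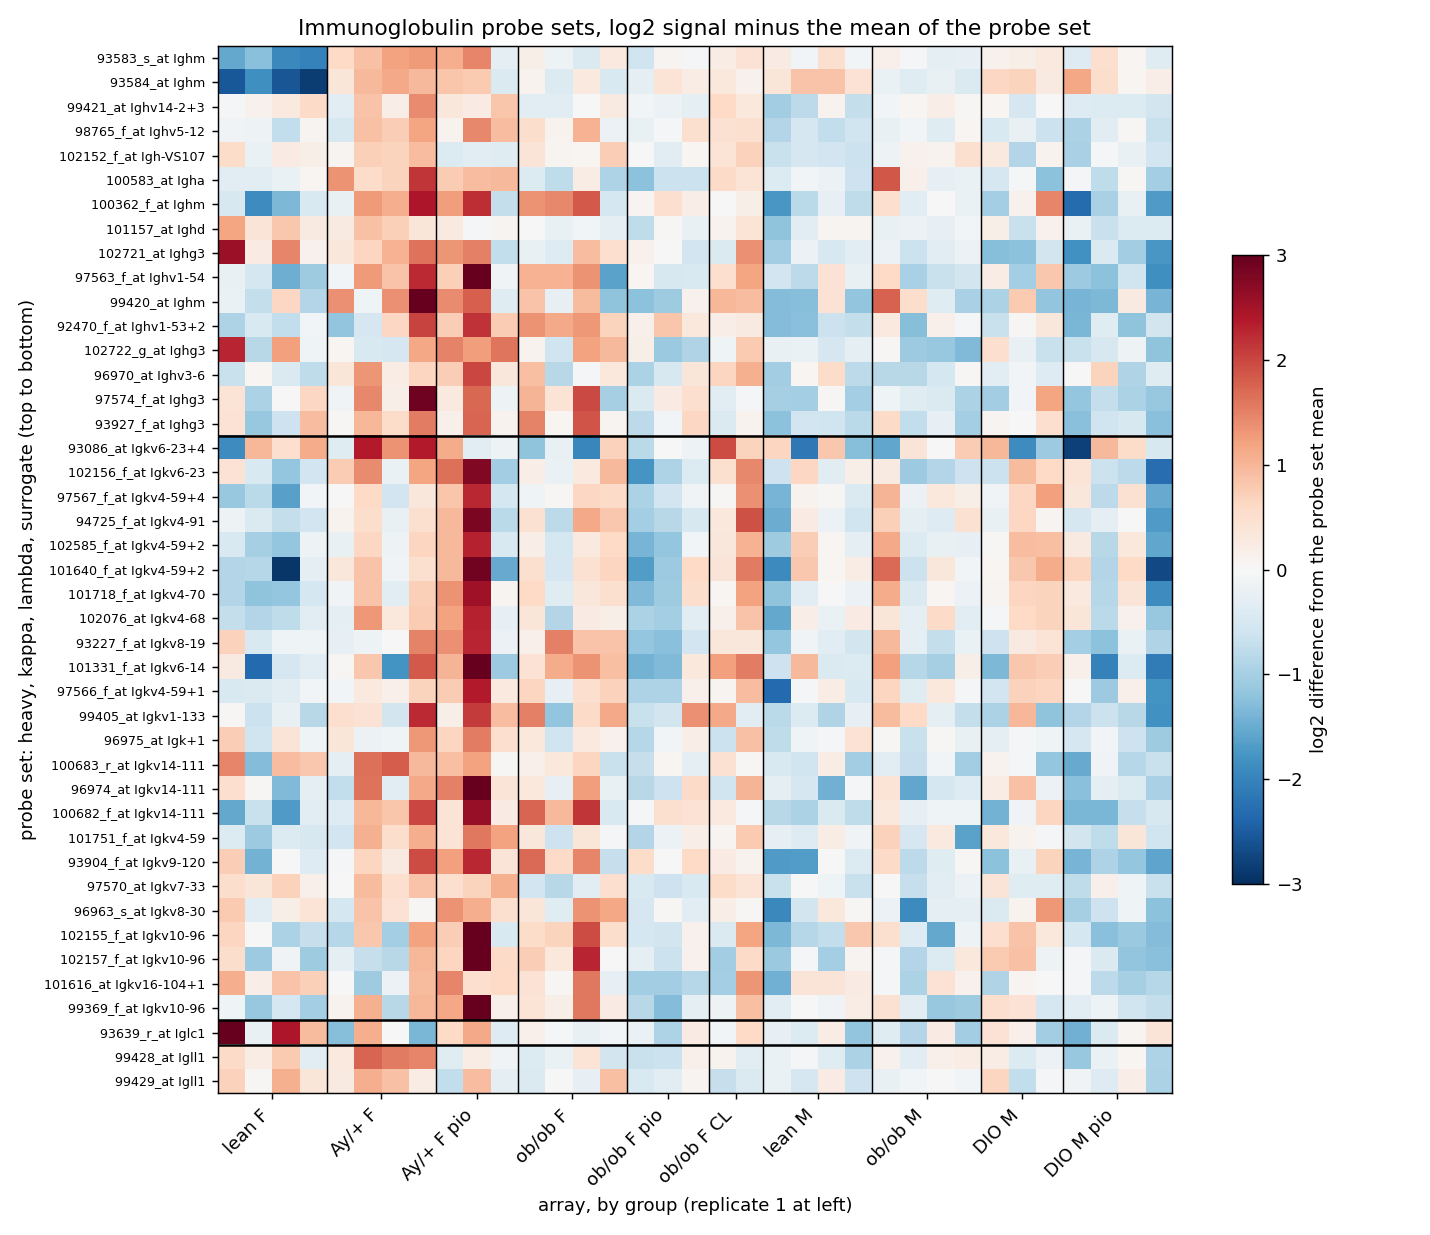
Log2 signal of the 43 brighter members (rows: heavy, kappa, lambda and surrogate light chain from top to bottom; first symbol shown, with the number of further symbols) on the 35 arrays (columns, by group), as the difference from the mean of each probe set over all arrays; red is higher and blue lower, and the colours end at 3 on the log2 scale in either direction. The top rows are low in lean females, and most kappa rows are highest in Ay/+ female replicate 2 on pioglitazone.

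The kappa signal varied widely between animals of a group. Igkv6-23 102156_f_at was 8185, 17920 and 1255 in the 3 Ay/+ females on pioglitazone, and 4435, 7020, 2254 and 5969 in untreated Ay/+ females. In lean females it was 3553, 1904, 1160 and 1743, and in ob/ob females 3007, 2249, 3178 and 5134. In lean males it was 1696, 3996, 2061 and 2938. These groups overlapped, and 102156_f_at was called in none of the comparisons. Ay/+ female replicate 2 on pioglitazone also had the highest Jchain signal of the study, 817.1, and the lowest was 62.48 in an ob/ob female on pioglitazone.

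Against lean females, 2 of the 23 kappa members rose in ob/ob females, with a median of 0.86, and 3 rose in Ay/+ females, with a median of 0.91, beside medians of -0.18 and -0.06 over all probe sets. None fell in either comparison. As 24.4% and 17.8% of all probe sets were called, the counts of kappa calls were below the background. Igkv14-111 100682_f_at was called in both: it was 12.22, 42.1, 8.854 and 60.06 in lean females, 55.32, 182.7, 158.7 and 390.8 in Ay/+ females, and 320.6, 177.9, 432.3 and 52.08 in ob/ob females. Lean females overlapped with both obese groups through a single later array in each, Ay/+ replicate 1 and ob/ob replicate 4. It rose by 2.15 ± 0.50 in ob/ob (adjusted p = 0.00215) and by 1.91 ± 0.50 in Ay/+ females (adjusted p = 0.00749). Without Ay/+ replicate 4 the second was 1.53 (adjusted p = 0.051), and on the later arrays alone the values were -0.146 and -0.085. Of the same symbol, 96974_at and 100683_r_at were not called.

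The further kappa members were called less widely. Igkv10-96 99369_f_at rose in ob/ob against lean females by 1.31 ± 0.46 (adjusted p = 0.0352), and 102155_f_at and 102157_f_at of the same symbol were not called. In Ay/+ against lean females Igkv4-68 102076_at rose by 1.19 ± 0.42 (adjusted p = 0.0479), Igkv4-59 101751_f_at by 1.12 ± 0.39 (adjusted p = 0.0414) and the dim 96964_at, annotated Igkv6-14 and Igkv4-53, by 1.19 ± 0.30 (adjusted p = 0.00605). Igkv7-33 97570_at was lower in ob/ob than in Ay/+ females (-0.89 ± 0.28, adjusted p = 0.0211) and lower in lean males than in lean females (-0.80 ± 0.28, adjusted p = 0.0457). On leaving out each of 8 arrays in turn, the Igkv10-96 call held for 3, the Igkv4-68 call for 2, the Igkv4-59 call for 1, the 96964_at call for 8 and the Igkv7-33 calls for 4 and 2. On the later arrays alone the direction turned for Igkv4-59 (-0.092) and for Igkv7-33 97570_at in ob/ob against Ay/+ females (0.491).

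The 4 brighter members annotated to Igkc together with Igkv4 segments (97567_f_at, 102585_f_at, 101640_f_at and 97566_f_at) were not called in any comparison, nor were Igkv4-70 101718_f_at and Igkv4-91 94725_f_at. For 97567_f_at the signal was 138.4 to 448.6 in lean, 316.2 to 731.4 in Ay/+ and 438.2 to 751.6 in ob/ob females. For 102585_f_at it was 165.8 to 358.1, 338.5 to 637 and 272.8 to 618.8, and for 101640_f_at 25.02 to 278, 315.4 to 633.6 and 233.6 to 547.8. Igkv4-70 101718_f_at was 117.5 to 204.7, 239.3 to 572 and 232.5 to 471.3, and Igkv4-91 94725_f_at was 245.9 to 373.4, 355.8 to 609.2 and 233.6 to 948.3 in the same order. The lean group overlapped with Ay/+ in 97567_f_at, 102585_f_at and 94725_f_at, and with ob/ob in all but 101718_f_at.

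The probe set 93086_at was spread widely within groups. It was 1210, 9078, 6386 and 9774 in lean females, 3486, 23630, 11500 and 23720 in Ay/+ females, and 1938, 3837, 1145 and 7263 in ob/ob females. The lowest array of the study was diet-induced obese male replicate 1 on pioglitazone, at 625.1, which also had a Gapdh ratio of 46.9. Values within a group differed several-fold and the groups overlapped. It was called lower in ob/ob than in Ay/+ females (log2 -2.12 ± 0.78, adjusted p = 0.0494), and leaving out any of Ay/+ replicates 2, 3 and 4 or ob/ob replicates 1, 2 and 3 ended the call. On the later arrays the value was 1.05.

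Its r with Jchain was -0.276, and -0.547 after removal of the group means. The 5 probe sets most like it were 96358_at (Gm8618 and Rps23, a ribosomal protein; r = 0.817), 101207_at (Gm9234 and Ppia, cyclophilin A; r = 0.796), the unnamed 101255_at (r = 0.789), 98333_at (Rps18, a ribosomal protein; r = 0.784) and 99596_f_at (Gnai2, a G protein subunit; r = 0.78). After removal of the group means r was 0.811, 0.787, 0.766, 0.799 and 0.796. This search was also added after the values had been seen.

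**Figure D3:**
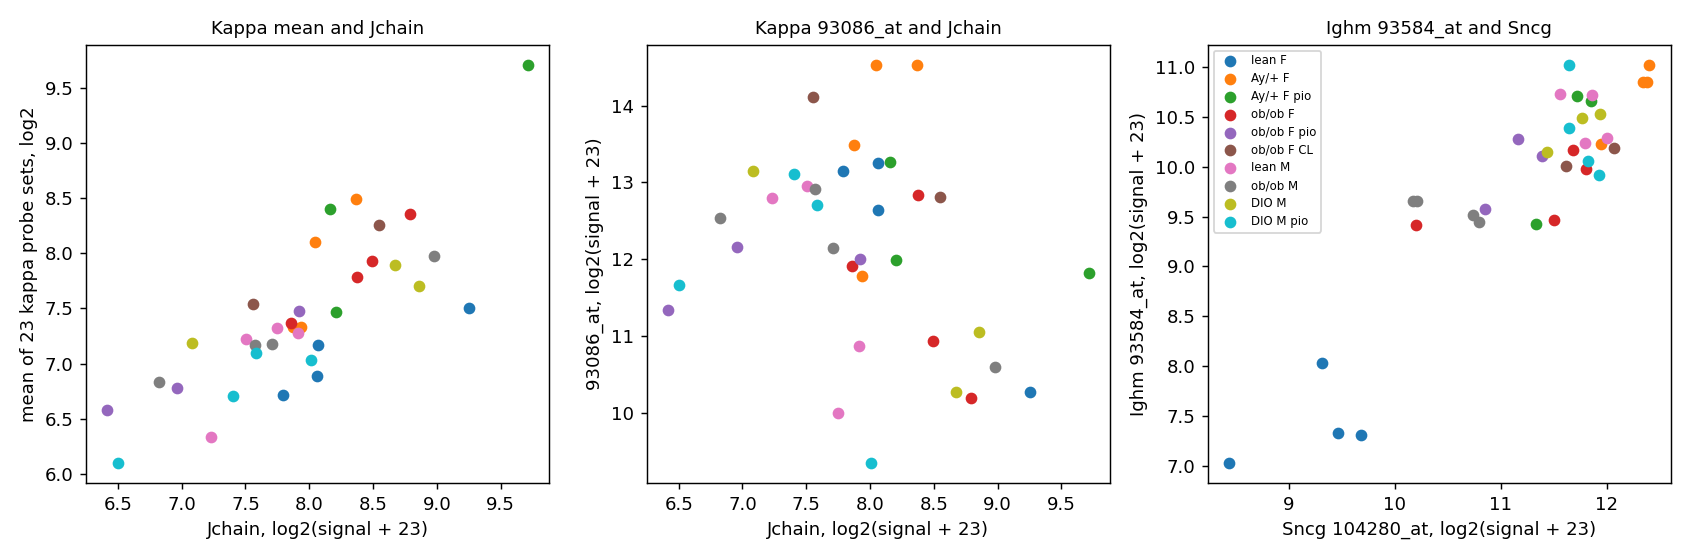
Each point is 1 of 35 arrays, coloured by group, on log2(signal + 23) axes: mean of 23 kappa probe sets against Jchain (left, r = 0.805), kappa 93086_at against Jchain (middle, r = -0.276) and Ighm 93584_at against Sncg (right, r = 0.898). In the right panel the 4 lean females lie apart at the lower left.

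By the mean log2 signal of all 43 brighter members, the probe sets outside the members most like them over the 35 arrays were 101319_f_at (annotated Adck1; r = 0.841) and the unnamed 100360_f_at (r = 0.84), 100721_f_at (r = 0.833) and 96972_f_at (r = 0.827). They were followed by 102154_f_at (r = 0.814) and 101720_f_at (r = 0.799), both annotated Adck1, and the unnamed 100376_f_at (r = 0.809), 101656_f_at (r = 0.777) and 97564_f_at (r = 0.761). Jchain 102372_at was the tenth (r = 0.738). All but Jchain carry the family suffix.

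That mean was 8.01 ± 0.55 (SD, n = 4) in Ay/+ females, 7.76 ± 0.34 (n = 4) in ob/ob females and 7.20 ± 0.28 (n = 4) in lean females. In males it was 7.03 ± 0.33 (n = 4) in lean, 7.28 ± 0.35 (n = 4) in ob/ob and 7.45 ± 0.16 (n = 3) in diet-induced obese mice. On pioglitazone it was 8.32 ± 0.87 (n = 3) in Ay/+ females, 7.09 ± 0.35 (n = 3) in ob/ob females and 6.80 ± 0.34 (n = 4) in diet-induced obese males, and on CL316243 7.86 ± 0.34 (n = 2). Ordered by this mean, each group differed from the next by less than the larger of their SDs. Neighbours in such an order lie close by construction, so this does not compare groups farther apart, such as Ay/+ and lean females.

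Lambda and surrogate light chains gave the opposite direction to the Ighm pair in part. Iglc1 93639_r_at, a lambda constant region, was 636.5, 43.44, 393 and 126.2 in lean females, 8.759, 141.3, 53.08 and 7.045 in Ay/+ females, 63.36, 52.72, 42.65 and 50.39 in ob/ob females, and 41.61, 35.37, 67.29 and 10.94 in lean males. Lean female replicates 1 and 3 were above all other arrays, and replicates 2 and 4 were not. It was lower than in lean females by log2 -1.61 ± 0.55 in ob/ob females (adjusted p = 0.0298), -1.96 ± 0.55 in Ay/+ females (adjusted p = 0.0113) and -1.97 ± 0.55 in lean males (adjusted p = 0.0148). Each call ended without lean female replicate 1 (log2 -1.10, -1.45 and -1.46) and without lean female replicate 3 (-1.32, -1.67 and -1.68). The other lambda member, the dim 93638_s_at (Iglc1 and Iglv1), leaned the other way in these comparisons and was not called in them. It was 5.797 to 31.89 in lean females, 6.428 to 99.43 in Ay/+ females, 25.75 to 110.4 in ob/ob females and 4.19 to 110.3 in lean males.

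Igll1 encodes λ5, which pairs with Vpreb proteins as a substitute light chain in precursor B cells. Its probe set 99428_at was 70.56, 230.2, 200.5 and 187.1 in Ay/+ females, 36.35, 65.93 and 47.84 in Ay/+ females on pioglitazone and 34.18, 42.93, 78.54 and 28.82 in ob/ob females. Untreated Ay/+ females did not overlap with the treated ones and overlapped with ob/ob females through replicate 1. It fell by 1.34 ± 0.35 on pioglitazone in Ay/+ females (adjusted p = 0.0237) and was lower in ob/ob than in Ay/+ females by log2 -1.45 ± 0.32 (adjusted p = 0.00194). Against lean females, at 90.56, 65.1, 107.3 and 37.78, it was higher in Ay/+ females by 0.95 ± 0.32 (adjusted p = 0.0363), a call that ended on leaving out 5 of the 8 arrays. The other Igll1 probe set, 99429_at, was not called.

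The dim Igkv1-135 101348_at moved in the direction of Iglc1 93639_r_at. It was lower than in lean females in Ay/+ females (-0.99 ± 0.30, adjusted p = 0.0195) and in lean males (-1.02 ± 0.30, adjusted p = 0.0209), and without lean female replicate 1, at 132.4 the highest array, the values were -0.62 (adjusted p = 0.15) and -0.64 (adjusted p = 0.147).

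Neither the 2 weeks of pioglitazone nor of CL316243 gave many calls among the members. Of 78, 2 were called lower in Ay/+ females on pioglitazone (Igll1, above, and Igh-VS107 102152_f_at, log2 -0.96 ± 0.25, adjusted p = 0.0271), beside 3.03% of all probe sets. Both calls ended without any of Ay/+ replicates 2, 3 and 4 or treated replicates 1 and 3. In ob/ob females 1 was called lower, beside 1.06% of all probe sets: Igkv8-19 93227_f_at was 195.3, 536.7, 330.5 and 331.2 untreated and 64.08, 58.87 and 107.3 on pioglitazone, without overlap (log2 -1.85 ± 0.45, adjusted p = 0.0314). This call ended on leaving out any single array of these groups but ob/ob replicate 1. All 3 treated arrays were scanned on 1 day, which held no other group, so treatment and scan day cannot be told apart; with scan day as a random block the adjusted p was 0.143.

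In diet-induced obese males 1 member was called on pioglitazone, beside 1.42%: the dim 101870_at, which follows the single array named above (log2 -1.94 ± 0.51, adjusted p = 0.0404, and -0.63, adjusted p = 0.503, without it). None was called for CL316243 by limma, beside 3.74% of all probe sets; its arrays too were the only ones of their scan day. At an unadjusted p under 0.05 there were 8 members, or 10.3%, beside 18.3% of all probe sets. The 23 kappa members had median log2 differences on pioglitazone of 0.76 in Ay/+ females, -0.89 in ob/ob females and -0.93 in diet-induced obese males, and 0.11 on CL316243. Over all probe sets these medians were 0.05, -0.05, -0.08 and -0.002. The 23 were chosen by a mean over all arrays, which includes treated Ay/+ replicate 2. On that array 102157_f_at and 99369_f_at had their highest values, 776.8 and 492.5. The kappa medians are therefore a description only. Over all 78 members the median in Ay/+ females was 0.29, but 0.10 without treated replicate 2 and 0.53 without treated replicate 1. In the test of the difference between the pioglitazone effects of both female genotypes no member was called, beside 0.0242% of all probe sets. At an unadjusted p under 0.05 there were 25 members, or 32.1%, beside 5.04% of all probe sets, and the groups on pioglitazone share no scan day with each other. Members are not independent measurements, so this share is a description only. Over the 78 the median of this difference was 0.73, but 0.57 without treated Ay/+ replicate 2 and 0.94 without treated Ay/+ replicate 1. In ob/ob against lean males 2 members were called, beside 10.6%, and in ob/ob males against ob/ob females none, beside 1.19%. In the latter 15 members, or 19.2%, had an unadjusted p under 0.05, beside 12.0% of all probe sets.

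**Figure D4:**
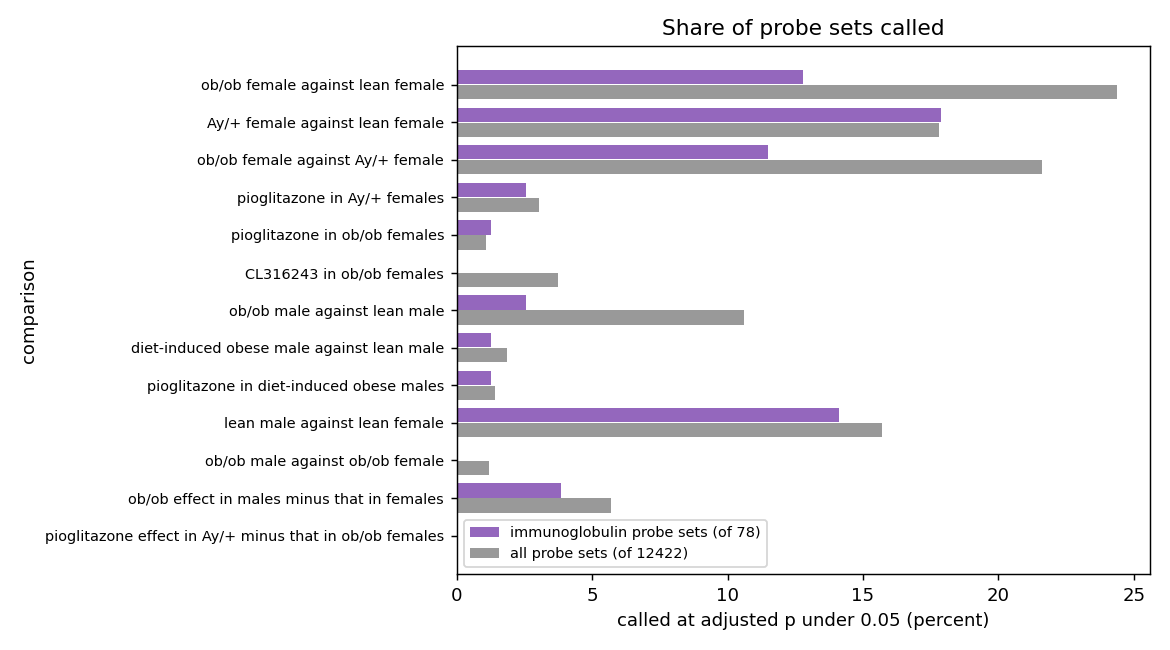
Percent of probe sets called at an adjusted p under 0.05 in each of 13 comparisons, for the 78 immunoglobulin probe sets and for all 12422. In ob/ob against lean females the shares are 12.8% and 24.4%, and in Ay/+ against lean females 17.9% and 17.8%.

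Other genes of B cells and plasma cells were read from lists. The counts of list genes called, here and below, stand beside the shares of all probe sets called. These shares were 24.4% in ob/ob against lean, 17.8% in Ay/+ against lean and 21.6% in ob/ob against Ay/+ females. Of 24 B cell markers 18 were measured. In ob/ob against lean females 4 rose and none fell, a smaller share than that of all probe sets. The 4 were Cd72 (log2 2.15, adjusted p = 0.00172), Blnk (2.53, adjusted p = 4.49e-06), Btk (1.32, adjusted p = 0.0249) and Cd37 (1.42, adjusted p = 2.53e-05). They encode a surface receptor, an adaptor and a kinase of B cell receptor signalling, and a tetraspanin. Macrophages express several of these genes too, and 8 of 10 macrophage markers rose in the same comparison, with a summed signal over the 10 of 2451 to 4447 in lean, 5613 to 9246 in Ay/+ and 12270 to 18890 in ob/ob females; the part of these cells in the B cell marker values was not tested. None of the 18 was called in Ay/+ against lean females, where 15 had a positive log2 difference, with a median of 0.21. Over all probe sets 5615 of 12422 were positive there, with a median of -0.06. For ob/ob against lean females 8 of the 18 were positive (median -0.04), beside 4535 of all probe sets (median -0.18). In ob/ob against Ay/+ females 3 of the 18 were higher and 2 lower. Blnk (2.21, adjusted p = 9.77e-05), Btk (1.198, adjusted p = 0.0441) and Cd37 (0.82, adjusted p = 0.0102) were higher, and the B cell transcription factors Pax5 (-1.40, adjusted p = 0.0027) and Spib (-1.33, adjusted p = 0.00596) lower. In that comparison too 8 of 10 macrophage markers rose.

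Defining B cell genes and the plasma cell gene Jchain overlapped between lean and obese females. Cd79a was 133 ± 55.2 (SD, n = 4) in lean, 138 ± 79.5 in Ay/+ and 126 ± 50.9 in ob/ob females. Cd79b was 134.3 ± 30.38, 110.5 ± 66.03 and 101.8 ± 50.45 in the same groups, and Ms4a1 was 201 ± 43.7, 300 ± 138 and 154 ± 65.3. Jchain was 319 ± 180, 245 ± 42.8 and 319 ± 86.6, and in each gene the groups overlapped.

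Of 12 measured plasma cell genes none rose and 5 fell in Ay/+ against lean females, among them Xbp1, the factor that drives secretion in plasma cells (-1.27, adjusted p = 0.000817), and Fkbp11, a chaperone of the secretory pathway (-1.68, adjusted p = 0.000803). In ob/ob against lean females 1 rose and 2 fell. Of 9 immunoglobulin receptors 2 rose in ob/ob females, the inhibitory IgG receptor Fcgr2b (1.08, adjusted p = 0.000444) and the Fc receptor chain Fcer1g (1.21, adjusted p = 0.00449), and Pigr and Trim21 fell. Of 11 genes of immunoglobulin assembly and switching none was called in ob/ob females, and Ung rose in Ay/+ females (1.19, adjusted p = 0.00938). Of 6 lymph node genes 1 was called lower in ob/ob and 1 higher in Ay/+ females, and their summed signal was 430.3 to 701.9 in lean, 468.1 to 881.3 in Ay/+ and 371.9 to 523.4 in ob/ob females.

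Tissue checks used other lists. Adipoq, the adipocyte hormone adiponectin, was present on every array (4846 to 21810). The summed signal of 10 MHC class II genes was 4736 to 12640 in lean, 18980 to 32080 in Ay/+ and 5317 to 13820 in ob/ob females, and 7 of the 10 rose in Ay/+ against lean females. In ob/ob against lean females 2 of 18 T and NK cell markers fell, 1 of 10 B cell growth and homing factors rose and 1 fell, 1 of 9 female tract genes and 1 of 4 red cell genes fell, 1 of 6 adipocyte markers rose and 1 fell, and no male tract gene was called. The summed female tract signal was 340.3 to 1759 in lean and 227.8 to 1420 in ob/ob females, and its part in the results was not tested.

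Of the 35 arrays, 22 were earlier and 13 later, and 13 scan days were recorded. Ay/+ replicate 1 (median r with its own group 0.869), ob/ob female replicate 4 (0.877), Ay/+ replicate 3 on pioglitazone (551 probe sets at or below the pseudocount, against 2328 to 4053 on the others) and diet-induced obese male replicate 1 on pioglitazone stood apart. Without these 4 the count of members called was 19 for ob/ob and 24 for Ay/+ against lean females. Calls over all 12422 probe sets moved from 3025 to 4869 and from 2207 to 4102 in the same order. The Ighm pair was still called in both comparisons without the 4. Ob/ob males were all later arrays, so in ob/ob against lean males the batch was shared only with 2 of the 4 lean males.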

How the data were processed

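Perigonadal fat RNA of 35 samples was measured on MG-U74Av2 arrays. The deposited intensity values are MAS5 signals on a linear scale, per the submitters' processing notes; the software version, scaling target and detection calls are not given in the sources used here. Deposited values ran from 0.01249 to 39601.5. A scanner type given on 13 arrays, which also share a trimmed mean, marks the later arrays.

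Arrays were brought to a common 2% trimmed mean of 250. Log2(signal + 23) was tested, 23 being the 25th percentile of scaled signals, so that differences of dim probe sets are compressed. With limma 3.58.1 (R 4.3.3), 1 mean per group was estimated for the 10 groups from the 35 arrays, with a trend in eBayes, 13 contrasts and Benjamini-Hochberg adjustment over 12422 probe sets after removal of 66 controls. Calls are at an adjusted p under 0.05. The fit was tested on simulated data. The number of arrays limits precision. Probe sets were named by GEO's platform annotation: 10833 had 1 symbol, 396 several and 1193 none.

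Members and lists were chosen with earlier results of these data known. Named were constant region members, in full where bright; per comparison the 3 largest called differences of other members in each direction, and the 5 with the highest means; the 10 probe sets most like the mean of the brighter members; called list genes, up to 4 per list; and probe sets sharing a symbol. Alternatives changed the normalization, pseudocount, filter on dim probe sets, groups fitted, batch, scan day, replicate block and arrays. Replicate numbers did not pair the samples (r of deviations from group means from -0.298 to 0.19).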

Additional observations from a re-analysis of the deposited data

Results flagged for a closer look

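The ob/ob effect differed between the sexes in 3 probe sets, by the limma test of the difference itself. Males minus females, the log2 value was -1.91 for Ighm 93583_s_at (adjusted p = 0.00249), -3.26 for Ighm 93584_at (adjusted p = 6.82e-07) and 1.49 for Igkv1-135 101348_at (adjusted p = 0.0317). Both Ighm values were called under each alternative that could be run and on leaving out each array. The Igkv1-135 call ended on leaving out 8 of 16 arrays; this probe set is dim, at 14.95 to 132.4 in lean females, 9.515 to 27 in ob/ob females, 6.97 to 17.21 in lean males and 21.23 to 48.17 in ob/ob males.

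In 6 of 150 groups of 4 arrays tested, 1 array lay far from the other 3, by the gap to its nearest neighbour as a share of the group's range. Chance flags about 1 in 20 such groups. The share was 0.867 for ob/ob male replicate 1 in kappa 102585_f_at and 0.831 for ob/ob female replicate 2 in kappa 101640_f_at. It was 0.873 for diet-induced obese male replicate 4 on pioglitazone in 99421_at. In Ighm 99420_at it was 0.929 for lean male replicate 3 and 0.971 for diet-induced obese male replicate 3 on pioglitazone, and in Ighg3 97574_f_at 0.989 for lean male replicate 3.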

How the results depend on the processing

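Of 958 values of 54 named log2 differences under the alternatives, 665 kept their direction and side of the threshold, 285 kept only the direction and 8 reversed, all 8 on the later arrays alone, where female groups have 1 array each. These were, in ob/ob against lean females, 100362_f_at (-0.067), 100682_f_at (-0.146) and 97720_at (-0.395), in Ay/+ against lean females 100682_f_at (-0.085) and 101751_f_at (-0.092), in ob/ob against Ay/+ females 93086_at (1.054) and 97570_at (0.491), and in lean males against lean females 102723_at (0.066). The cause was not tested.

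Counts over all probe sets moved under the alternatives, here and below, so a member count alone gives no share. For ob/ob against lean females they were 3025 in the main fit, 4328 on the earlier arrays and 1451 with scan day. For Ay/+ against lean females they were 2207, 3573 and 1328, and 440 with the compared groups only. The filter left 26 members, and 1999 of 6211 probe sets were called for Ay/+ against lean females. Counts of members called moved as follows. Ob/ob against lean females (10 called): 17 on the earlier arrays, 4 on the later, 5 with scan day as a random block, 19 without the 4 doubted arrays. Ay/+ against lean females (14): 8 with the filter on dim probe sets, 6 with the compared groups only, 23 earlier, 2 later, 9 with scan day, 24 without the 4. Ob/ob against Ay/+ females (9): 0 with compared groups only, 0 later, 4 with scan day, 14 without the 4. Lean males against lean females (11): 6 with quantile normalization, 7 with the filter, 4 with compared groups only, 5 earlier, 5 later, 6 with scan day. Ob/ob against lean males (2): 1 with quantile normalization, 6 with compared groups only, 5 later, 1 with scan day. Ob/ob males against ob/ob females (0): 5 later, 9 without the 4. The ob/ob effect between sexes (3): 10 without the 4.

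For the drugs and the diet counts were small. Pioglitazone in Ay/+ females (2): 1 with pseudocount 1, 1 with the filter, 0 with compared groups only, 4 without the 4. Pioglitazone in ob/ob females (1): 2 with pseudocount 1, 2 with batch as a fixed block, 0 with compared groups only, earlier arrays or scan day. CL316243 (0): 1 with pseudocount 1, 1 with batch as a block, 5 earlier, 4 without the 4. Diet-induced obese against lean males (1): 0 with the filter, compared groups only or earlier arrays, 2 later. Pioglitazone in diet-induced obese males (1): 0 with quantile normalization, the filter, earlier arrays, scan day or without the 4, and 3 later. The difference of the pioglitazone effects (0): 1 earlier, 1 without the 4.

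The replicate block, on numbers that do not pair the samples, gave 1 call for pioglitazone in Ay/+ females and 0 for pioglitazone in ob/ob females and in diet-induced obese males; other counts stayed within 1.5 times, as 10 for ob/ob and 14 for Ay/+ against lean females.

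Leaving out each array in turn gave 8 to 18 calls for ob/ob against lean females (18 without ob/ob replicate 4), 6 to 19 for Ay/+ against lean females (6 without Ay/+ replicate 4, 8 without lean replicate 1, 9 without Ay/+ replicate 3), 4 to 14 for ob/ob against Ay/+ females (14 without Ay/+ replicate 1, 4 without ob/ob replicate 1, 5 without Ay/+ replicate 2) and 3 to 12 for lean males against lean females (3 without lean female replicate 1, 4 without lean female replicate 3 or lean male replicate 1, 6 without lean male replicate 4, 7 without lean male replicate 2). The other ranges were 0 to 2 for pioglitazone in Ay/+ females, 0 to 1 in ob/ob females and in diet-induced obese males, 0 to 4 for CL316243 and for ob/ob males against ob/ob females (4 without ob/ob female replicate 4 in both), 0 to 2 for ob/ob against lean males, 0 to 1 for diet-induced obese against lean males, 2 to 6 for the ob/ob effect between sexes (6 without ob/ob female replicate 4) and 0 to 1 for the difference of the pioglitazone effects.

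Scaling moved the median of all probe sets: for ob/ob against lean females it was -0.18 here and -0.05 after quantile normalization, and for lean males against lean females -0.20 and -0.01. The Ighm pair was called under every alternative run in ob/ob and Ay/+ against lean females and in lean males against lean females, but not in ob/ob against Ay/+ females. With 2 to 4 arrays a group and no detection calls, small differences of dim members were not detectable.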
